A study of Mus musculus with 10 samples.

Results

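Versican (Vcan), reelin (Reln) and anthrax toxin receptor 1 (Antxr1) were 3 of the 2560 named genes in an array data set of sorted mouse mammary cells. They were measured by the probe sets that carry 1 of these symbols and no other, which were 6 of 3663 probe sets, with 4 for Vcan, 1 for Reln and 1 for Antxr1. The 3 genes were chosen by their difference between basal and luminal arrays, so that contrast is given for them as a description without a test. The mice were virgin FVB females of 6 to 8 weeks. Glands were digested to single cells, the gate removed those that stained for CD45, CD31, Ter119 or CD140α, and the sort then used CD24, CD49f and Thy-1. CD24 and integrin α6 (CD49f) part luminal from basal cells, and Thy-1 is a GPI-anchored surface protein. The 3 basal populations were Thy-1+CD24medCD49fhigh, which the submitters call stem cells, Thy-1-CD24medCD49fhigh, which they call progenitors, and CD24medCD49fmed, which they call myoepithelial. The 2 luminal populations were CD24highCD49fmed (luminal progenitors in the labels) and CD24medCD49f-/low (differentiated luminal cells in the labels). For the myoepithelial gate the methods of the study write CD24lowCD49fmed and the labels CD24medCD49fmed, and no source states that these are 1 gate. Each population had 2 arrays. Nothing states that the 2 came from separate animals, so every p-value measures the spread between these samples, which may be technical.

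Versican is a large secreted proteoglycan whose core protein carries chondroitin sulphate chains and binds hyaluronan, and it gives a loose, hydrated matrix around cells. Reelin is a secreted glycoprotein, best known from the layering of the developing brain, that binds the lipoprotein receptors Vldlr and Lrp8 and signals through the adaptor Dab1. Antxr1, also known as TEM8, is a single-pass membrane protein that binds collagens outside the cell and was first known from tumour endothelium and as a docking site for anthrax toxin. Basal mammary cells are contractile myoepithelial cells and their immature relatives, which lie on the basement membrane and face the stroma, whereas luminal cells line the duct.

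The starts of Vcan and Reln are shown as a description. The 3 genes were chosen for their basal and luminal difference, so their shared direction there gives no ground for a shared promoter. RefSeq (GRCm38.p6) gave a promoter window for Vcan and Reln, and Antxr1 is named only. The 250 bases before the start are printed on the strand of the gene, 5′ to 3′, with matches to the searched motifs in capitals. The Vcan window lies at chr13:89742513-89742762 and the Reln window at chr5:22344706-22344955, both on the minus strand.
Vcan promoter: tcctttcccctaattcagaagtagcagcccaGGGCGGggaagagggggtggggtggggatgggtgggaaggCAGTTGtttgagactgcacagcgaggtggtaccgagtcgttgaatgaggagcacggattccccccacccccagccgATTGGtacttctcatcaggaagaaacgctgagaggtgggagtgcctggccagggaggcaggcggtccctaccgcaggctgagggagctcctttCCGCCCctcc
Reln promoter: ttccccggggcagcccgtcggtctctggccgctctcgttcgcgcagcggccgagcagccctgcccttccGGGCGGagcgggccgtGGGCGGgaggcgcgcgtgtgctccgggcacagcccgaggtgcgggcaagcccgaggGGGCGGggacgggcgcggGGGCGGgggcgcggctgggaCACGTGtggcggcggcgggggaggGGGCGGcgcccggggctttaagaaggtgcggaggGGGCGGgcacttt
Searched on both strands were the GC box GGGCGG, the CCAAT box CCAAT, the E-box CANNTG, an AP-1 site TGANTCA, a TCF/LEF core CTTTGA and the TATA box TATAAA. Both windows held the GC box, with 2 matches in Vcan and 6 in Reln, and 32.7% of 32851 mouse promoter windows of this length held at least 1. Both also held 1 E-box, as did 66.2% of all windows. A CCAAT box was found in the Vcan window alone (33.8% of all windows). Neither window had a match to the AP-1 site (6.75% of all windows), the TCF/LEF core (13.8%) or TATAAA (12.4%). The Reln window was 80.0% G and C, above 98.8% of all windows, and the Vcan window was 62.4% G and C, above 77.5% of them, against a median of 52.4%. These matches are a description of the letters and no evidence of binding.

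The values are log2 intensities that the authors centred on the mean of the 10 arrays for each probe set. A value of 1 is thus a doubling over that mean, and the scale holds differences between arrays but no abundance. Values ran from -4.54 to 3.79 over all probe sets, and array medians lay between -0.43 and 0.17. For 3 of the 10 arrays the array most correlated with it was its own partner. By list means the labels fitted the basal and luminal marker genes. These markers were also used, with the myoepithelial label, to place CD24medCD49fmed among the basal populations, so for it they are no separate check. All 9 basal markers, keratins and smooth muscle genes among them, were in the table, and their mean ran from 0.98 to 1.90 in the 6 basal arrays, against -2.82 to -1.37 in the 4 luminal arrays. The mean of 7 luminal markers (of 9 listed) ran from -2.10 to 0.34 in basal arrays, against 0.82 to 1.39 in luminal arrays. All 7 had a negative basal minus luminal difference. Arrays overlapped for Krt18 (-1.92 to 0.60 in basal, 0.45 to 1.14 in luminal) and Krt19 (-1.89 to 1.56 in basal, -0.99 to 1.75 in luminal). The mean of 9 fibroblast markers (of 12) ran from -0.01 to 1.24 in basal arrays, against -1.22 to -0.66 in luminal arrays, and that of 6 pericyte markers (of 9) was -0.07 or higher in basal arrays and -0.25 or lower in luminal arrays. Means of 5 Schwann cell markers (of 8) and 2 adipocyte markers (of 6) were also higher in basal arrays (0.18 to 1.18 and -0.08 to 1.53) than in luminal arrays (-1.28 to -0.96 and -1.85 to -0.19). Of 6 lymphatic endothelial markers 2 were in the table (mean 0.16 to 0.70 in basal, against -1.02 to -0.19 in luminal arrays). The 2 went opposite ways, with Pdpn higher in basal populations (3.43 ± 0.32) and Prox1 lower (-1.40 ± 0.32). Of 8 leukocyte markers 1 was in the table (-1.46 to 0.08 in basal, against 0.56 to 1.30 in luminal arrays). None of 8 endothelial markers was, so endothelial cells were not analysed here. In sorted bulk samples, fewer cells of a type and less RNA per cell cannot be told apart.

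All 3 genes were high in every basal array and low in every luminal array. Vcan stood at 1.40 and 1.49 in Thy-1+CD24medCD49fhigh, at 1.40 and 2.71 in Thy-1-CD24medCD49fhigh, and at 1.74 and 2.30 in CD24medCD49fmed. In the luminal populations Vcan stood at -2.86 and -2.97 in CD24highCD49fmed and at -2.55 and -2.66 in CD24medCD49f-/low. The groups thus lay far apart, with the 4 luminal arrays of Vcan close together and the second Thy-1- array above all others. Vcan averaged 1.84 ± 0.55 in basal arrays (SD, n = 6) and -2.76 ± 0.19 in luminal arrays (SD, n = 4), and the difference of the population means was 4.60 ± 0.34 (SE), or 24.3-fold. It was the second largest such difference of all named genes, between Actg2 (4.61), a smooth muscle actin, and Wif1 (4.59), a secreted Wnt inhibitor.

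**Figure D1:**
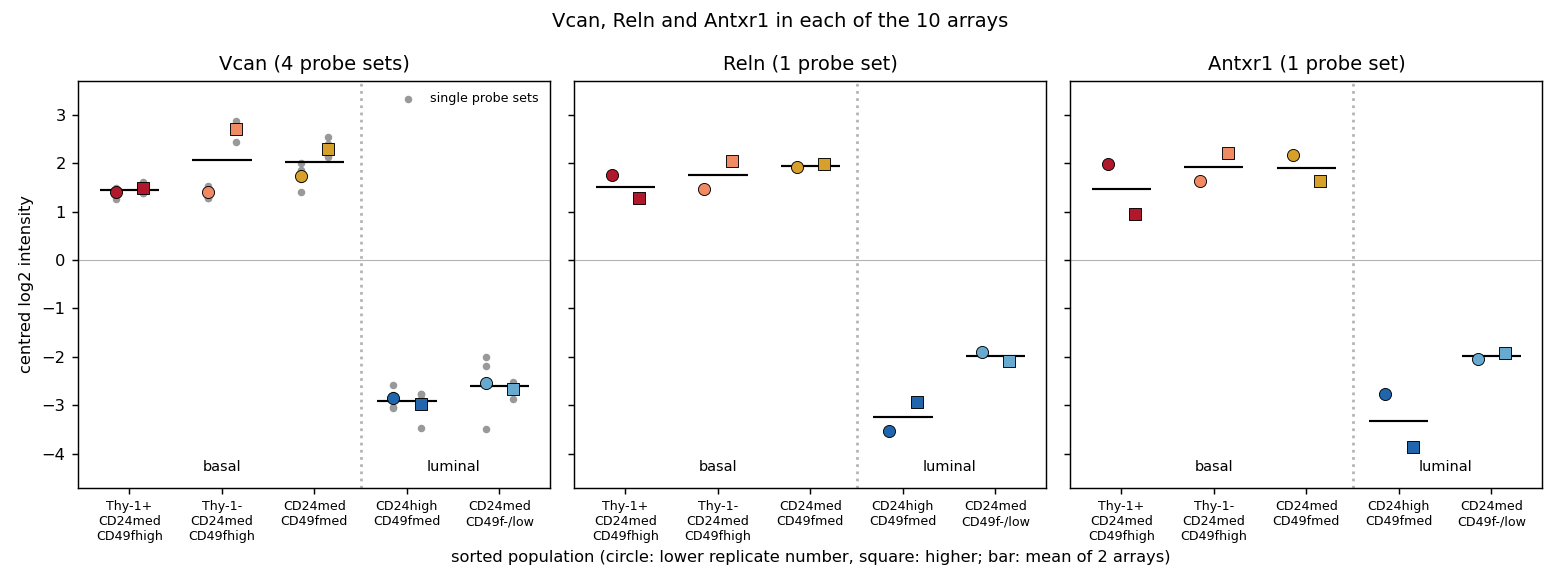
Centred log2 intensity (y axis) of Vcan, Reln and Antxr1 in the 5 sorted populations (x axis), with 1 large symbol per array (circle for the lower, square for the higher replicate number), a bar at the mean of the 2 arrays and, for Vcan, small grey points for the 4 single probe sets. Every basal array lies at 0.95 or above and every luminal array at -1.90 or below, and the CD24highCD49fmed symbols of Reln and Antxr1 lie below those of CD24medCD49f-/low.

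Reln had the narrowest basal values. They were 1.75 and 1.29 in Thy-1+CD24medCD49fhigh, 1.46 and 2.05 in Thy-1-CD24medCD49fhigh, and 1.93 and 1.98 in CD24medCD49fmed. Luminal values of Reln were -3.54 and -2.93 in CD24highCD49fmed and -1.90 and -2.09 in CD24medCD49f-/low. The luminal arrays of Reln therefore fell into a lower and a higher pair that followed the sort. Its mean was 1.74 ± 0.30 in basal arrays (SD, n = 6) and -2.62 ± 0.76 in luminal arrays (SD, n = 4), and the population means differed by 4.36 ± 0.33 (SE), or 20.5-fold.

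Antxr1 values were 1.99 and 0.95 in Thy-1+CD24medCD49fhigh, 1.63 and 2.22 in Thy-1-CD24medCD49fhigh, and 2.17 and 1.64 in CD24medCD49fmed. In luminal cells Antxr1 stood at -2.77 and -3.86 in CD24highCD49fmed and at -2.05 and -1.91 in CD24medCD49f-/low. The second Thy-1+ array held its lowest basal value, and the 2 CD24highCD49fmed arrays were both below the 2 CD24medCD49f-/low arrays. Antxr1 averaged 1.77 ± 0.47 in basal arrays (SD, n = 6) and -2.65 ± 0.89 in luminal arrays (SD, n = 4), with a difference of the population means of 4.41 ± 0.35 (SE), or 21.3-fold. By size of this difference Antxr1 ranked 5 and Reln 6 among the 2560 named genes, below Krt14 (4.49), a basal keratin, and above Serpinb11 (4.29) and Krt17 (4.28).

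The empty space between the groups was wide. The lowest basal array of Vcan lay 3.95 above its highest luminal array, which was the widest such gap of all 2560 named genes. For Reln the gap was 3.20 (rank 7) and for Antxr1 2.85 (rank 18). A lowest basal array above the highest luminal one was found for 739 of 2932 tested features, or 25.2%, a feature being a named gene or a probe set without exactly 1 symbol. The genes were chosen for this contrast, so nothing is read from these ranks.

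The 4 probe sets of Vcan gave the same picture. In basal arrays probe set 1421694_a_at ran from 1.28 to 2.76, 1427256_at from 1.43 to 2.79, 1427257_at from 1.39 to 2.43 and 1447887_x_at from 1.27 to 2.87. In luminal arrays they ran from -3.03 to -2.49, from -3.50 to -2.68, from -3.06 to -2.19 and from -3.47 to -2.01, in the same order of probe sets. Their basal minus luminal differences were 4.65, 4.93, 4.43 and 4.40. Within an array the 4 differed by 0.21 to 0.70, except in CD24medCD49f-/low replicate 1, where they spanned 1.48 (-3.50 to -2.01). Versican has several splice forms, and the probe sets could not be assigned to them here. Reln and Antxr1 had 1 probe set each, so no such check was possible for them.

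The first comparison among basal cells asked whether Thy-1, by which the study splits the CD24medCD49fhigh gate, also splits the 3 genes. Means in Thy-1+CD24medCD49fhigh and Thy-1-CD24medCD49fhigh were 1.45 and 2.06 for Vcan, 1.52 and 1.76 for Reln, and 1.47 and 1.92 for Antxr1. None of the 3 genes passed the test. The difference was -0.61 ± 0.53 for Vcan (SE, 95% confidence interval -1.71 to 0.49), -0.23 ± 0.50 for Reln (-1.28 to 0.81) and -0.45 ± 0.55 for Antxr1 (-1.59 to 0.68), each with a limma adjusted p of 0.999. Of all features 2 were called at an adjusted p under 0.05 (0.0682%), and 74 (2.52%) had an unadjusted p under 0.05, the 3 genes not among them. Both calls, the fibrillar collagen gene Col3a1 (3.29 ± 0.50, adjusted p = 0.00389) and the transporter gene Abca8a (2.74 ± 0.52, adjusted p = 0.0474), were higher in Thy-1+ cells. The intervals reach a 2-fold difference or more for each gene in 1 direction, so equal levels are not shown either.

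The size and sign of these differences rested on single arrays. Without Thy-1-CD24medCD49fhigh replicate 2 the difference was 0.05 for Vcan and 0.06 for Reln, and without Thy-1+CD24medCD49fhigh replicate 2 it was 0.07 for Antxr1. Replicate 2 of Thy-1-CD24medCD49fhigh held the highest basal value of all 3 genes, while the mean of the 9 basal markers there was 0.98, which with Thy-1+CD24medCD49fhigh replicate 2 (0.98) was the lowest of the basal arrays (others 1.33 to 1.90). Thy-1+CD24medCD49fhigh replicate 2 also had the highest luminal marker mean of the basal arrays (0.34, others -2.10 to -0.14) and the smallest SD over probe sets of all 10 arrays (0.513). Their part in the differences was not tested. Vcan differed by 1.31 between the 2 Thy-1- arrays, more than 92.2% of all features, but by 0.09 between the 2 Thy-1+ arrays, less than all but 7.98% of features. Antxr1 differed by 1.05 between the 2 Thy-1+ arrays, more than 82.1% of features.

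Several marker lists differed between the same arrays. The fibroblast marker mean was 1.24 and 1.06 for Thy-1+CD24medCD49fhigh, against -0.01 and 0.19 for Thy-1-CD24medCD49fhigh, and the pericyte marker mean was 0.99 and 1.00, against -0.07 and -0.07. The Schwann cell marker mean was 1.03 and 1.11 for Thy-1+CD24medCD49fhigh, against 0.21 and 0.18 for Thy-1-CD24medCD49fhigh. Differences were positive for 8 of 9 fibroblast, 6 of 6 pericyte and 4 of 5 Schwann cell markers, while both lymphatic endothelial markers were negative (median -0.25), as were the 3 genes. Over all features 1907 of 2932 differences were positive. Of the 9 fibroblast markers 1, Col3a1, was called, and none of the pericyte, Schwann cell or lymphatic endothelial markers was. The part of these markers in the Vcan, Reln and Antxr1 values was not tested.

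Set against CD24medCD49fmed cells, the Thy-1+CD24medCD49fhigh cells gave a difference of -0.58 ± 0.53 for Vcan (SE, 95% confidence interval -1.68 to 0.52), -0.43 ± 0.50 for Reln (-1.47 to 0.62) and -0.44 ± 0.55 for Antxr1 (-1.57 to 0.70), each with a limma adjusted p of 1.00. By limma no feature at all was called in this comparison (0.00%), while 46 (1.57%) had an unadjusted p under 0.05 and the 3 genes were not among these. Without Thy-1+CD24medCD49fhigh replicate 2 the Antxr1 difference was 0.09. The Thy-1-CD24medCD49fhigh and CD24medCD49fmed cells had nearly the same means, 2.06 and 2.02 for Vcan, 1.76 and 1.95 for Reln and 1.92 and 1.91 for Antxr1. Their difference was 0.03 ± 0.53 for Vcan (-1.07 to 1.13), -0.19 ± 0.50 for Reln (-1.24 to 0.85) and 0.02 ± 0.55 for Antxr1 (-1.12 to 1.15), with a limma adjusted p of 0.999 for each. There 3 features were called (0.102%) and 64 (2.18%) had an unadjusted p under 0.05. The 3 called were Col3a1 (-2.75 ± 0.50, adjusted p = 0.0192) and a pair of unnamed probe sets. Leaving out Thy-1-CD24medCD49fhigh replicate 2 changed the Vcan difference to -0.62 and the Antxr1 difference to -0.28. The comparisons among basal populations share arrays and are not independent.

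**Figure D2:**
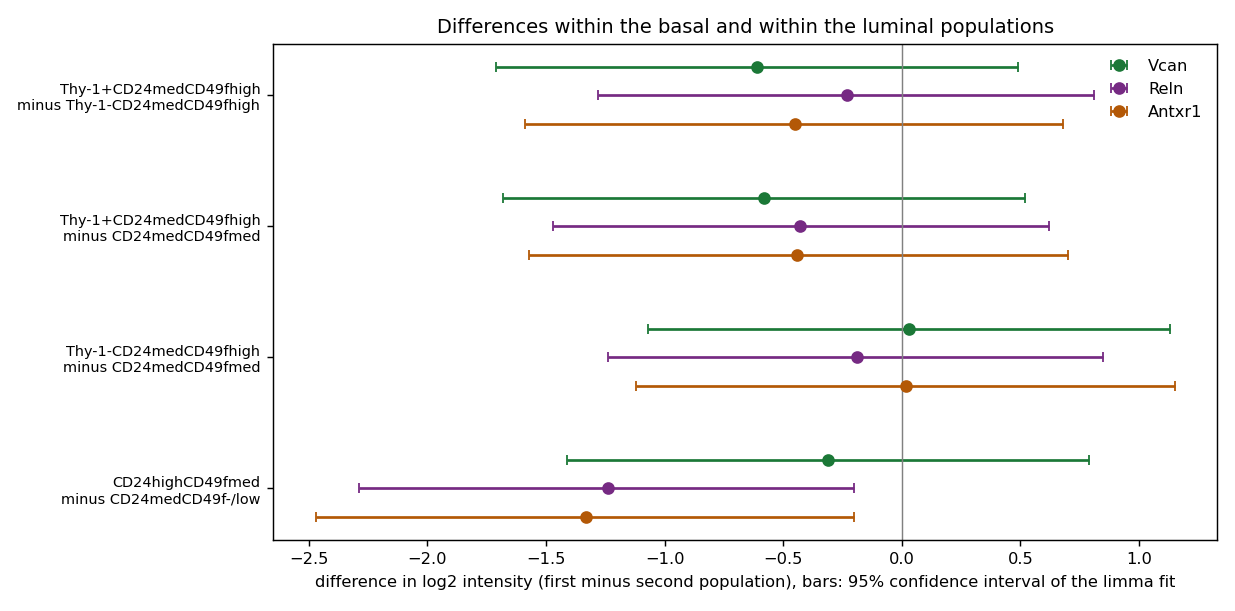
Difference in log2 intensity (x axis, first minus second population, with the 95% confidence interval of the limma fit) for Vcan, Reln and Antxr1 in the 4 tested comparisons (y axis). All 9 intervals among basal populations cross 0, and those of Reln (-2.29 to -0.20) and Antxr1 (-2.47 to -0.20) between the luminal populations lie below 0 before adjustment.

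The comparison of the 2 luminal populations asked whether the low values were alike in luminal progenitors and differentiated luminal cells. Vcan had means of -2.92 in CD24highCD49fmed and -2.61 in CD24medCD49f-/low. The difference was -0.31 ± 0.53 (SE, 95% confidence interval -1.41 to 0.79, limma adjusted p = 0.781). That SE pools the spread within all 5 populations, and it was 0.36 with only the arrays compared. The Vcan difference was -0.69 with array medians set to 0, 0.33 after quantile normalisation and -0.77 to 0.26 over the 4 single probe sets. The range of Vcan over the 4 luminal arrays was 0.43, and 4.09% of features had a smaller one (median 1.37). This is the range of a mean of 4 probe sets, whose single ranges were 0.54, 0.82, 0.87 and 1.46. Reln had means of -3.24 in CD24highCD49fmed and -1.99 in CD24medCD49f-/low, a 2.36-fold difference (-1.24 ± 0.50, interval -2.29 to -0.20). Antxr1 had means of -3.32 in CD24highCD49fmed and -1.98 in CD24medCD49f-/low, a 2.52-fold difference (-1.33 ± 0.55, interval -2.47 to -0.20). Neither passed the limma test after adjustment over all features (adjusted p = 0.245 for each, unadjusted p = 0.0222 for Reln and 0.0235 for Antxr1). Called in this comparison were 6 features (0.205%), 4 of them lower (0.136%). At an unadjusted p under 0.05 there were 451 features (15.4%), of which 71 (2.42%) were lower, Reln and Antxr1 among them. Both CD24highCD49fmed arrays lay below both CD24medCD49f-/low arrays for 415 features (14.2%), and all 3 genes were of this kind. For Vcan this held for the mean, while its probe sets 1421694_a_at and 1427256_at taken singly were not of this kind.

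The basal markers had the same sign. Their mean was -2.82 and -2.66 in CD24highCD49fmed, against -1.55 and -1.37 in CD24medCD49f-/low, and all 9 had a negative difference with a median of -1.42, beside a median of 0.35 over all features. None of the 9 was called. Means of several other marker lists were lower in CD24highCD49fmed too. They were -1.15 and -1.22 in CD24highCD49fmed, against -0.66 and -0.87 in CD24medCD49f-/low, for fibroblast markers (8 of 9 negative differences), and -1.32 and -1.85, against -0.19 and -0.64, for the 2 adipocyte markers. Pericyte markers had means of -0.78 or lower in CD24highCD49fmed, against -0.32 and -0.25 in CD24medCD49f-/low (5 of 6 negative). The lymphatic endothelial means were -0.82 and -1.02, against -0.40 and -0.19, with Pdpn negative (-1.66 ± 0.49) and Prox1 positive (0.41 ± 0.50). Schwann cell means overlapped, at -1.28 and -1.21, against -1.22 and -0.96 (3 of 5 negative). Not lower in CD24highCD49fmed were the luminal marker mean (1.10 and 1.39, against 0.82 and 1.38) and the 1 leukocyte marker (1.12 and 1.30, against 0.56 and 1.23). No gene of these lists was called. The called genes included Myl9 (-2.95 ± 0.51, adjusted p = 0.0179), a smooth muscle myosin light chain, and Tgfb1i1 (-2.89 ± 0.51, adjusted p = 0.0179), a focal adhesion adaptor, while the cell division genes Ect2 (3.07 ± 0.62, adjusted p = 0.0458) and Spc25 (2.83 ± 0.56, adjusted p = 0.0458) were higher in CD24highCD49fmed. The part of these markers in the Reln and Antxr1 values was not tested, nor was the difference between these genes and Vcan. Quantile normalisation brought the difference to -0.51 for Reln and -0.64 for Antxr1 (adjusted p = 0.924 for each), and with array medians set to 0 it was -1.62 for Reln (adjusted p = 0.145) and -1.71 for Antxr1 (adjusted p = 0.162).

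Of 35 listed genes of the versican and hyaluronan matrix 11 were in the table, and 10 of these 11 were called higher in basal than in luminal populations, with a median difference of 2.08. The table holds probe sets that differed at least 4-fold between some arrays, which a step between basal and luminal cells helps to pass, and the same holds for every list below. Among all features 76.0% were called in this comparison, 34.7% higher and 41.3% lower, and the median was -0.11. The strongest was Fbln2, encoding the versican-binding protein fibulin-2, at 1.15 to 2.33 in basal arrays, against -2.74 to -1.97 in luminal arrays (4.01 ± 0.34, limma adjusted p = 1.06e-08). The protease genes Adamts1, Adamts4 and Adamts9, whose products cut versican, were higher by 3.29 ± 0.31, 2.42 ± 0.31 and 2.34 ± 0.37. Fbn2, encoding the microfibril protein fibrillin-2, was higher by 2.61 ± 0.34. Has2, which makes hyaluronan, was higher by 2.04 ± 0.35, and the hyaluronan receptor gene Cd44 by 1.04 ± 0.36, a call that was lost in 2 of 14 alternative fits. Hmmr, encoding a hyaluronan-binding protein that is also a mitotic spindle protein, stood at -0.32 ± 0.37 (adjusted p = 0.424).

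Enzymes of chondroitin sulphate synthesis, which build the chains that versican carries, had 5 of 27 listed genes in the table. Of these, 4 were called higher in basal cells (34.7% of all features), and the list median was 2.28. The 4 were Dse (2.63 ± 0.36), which epimerises the chain to dermatan sulphate, the sulphotransferases Chst15 (2.46 ± 0.32) and Chst11 (1.77 ± 0.33), and the polymerising enzyme Chsy1 (2.28 ± 0.31). Csgalnact2 stood at -0.42 ± 0.35 (limma adjusted p = 0.261). Of other proteoglycans 13 of 31 were in the table, 12 called higher (34.7% of all features) and 1 lower (41.3%), with a median of 1.78. Led by Tgfbr3 (3.27 ± 0.33), the TGFβ coreceptor betaglycan, they included the collagen-binding Fmod (2.80 ± 0.35), the glypican Gpc6 (2.57 ± 0.33) and the testican Spock2 (2.20 ± 0.35). The lower one was Ptprz1 (-0.88 ± 0.34, adjusted p = 0.0230), a receptor phosphatase with a chondroitin sulphate form, and this call was lost in 4 of 14 alternative fits. Over those fits 9 to 12 of the 13 were called higher, with Sdc1 lost in 8, Sdc4 in 5 and Cspg4 in 2.

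**Figure D3:**
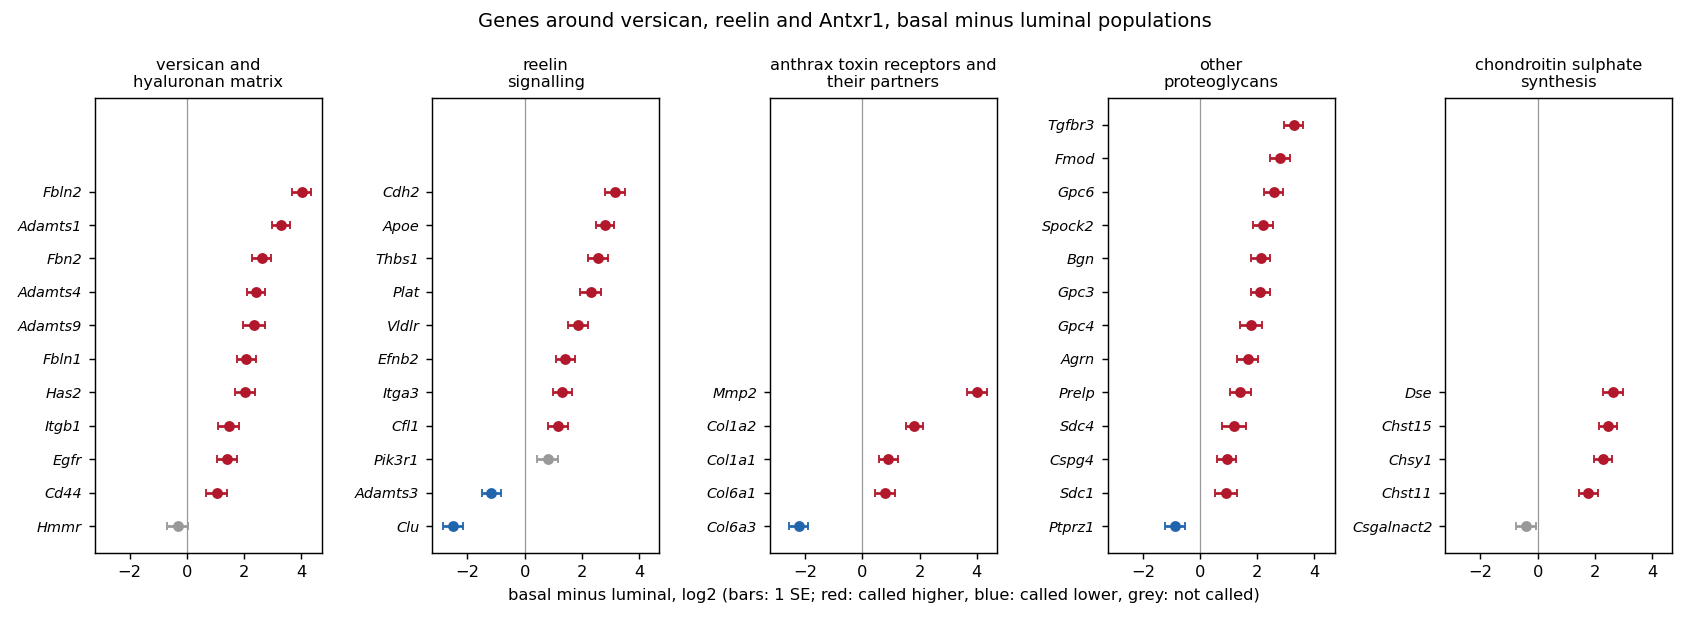
Basal minus luminal difference in log2 intensity (x axis, bars 1 SE) for each measured gene of the 5 lists (y axis), with genes called higher in red, lower in blue and not called in grey. Of 11 genes of the versican and hyaluronan matrix 10 are red, and Clu (-2.51) and Col6a3 (-2.23) lie farthest to the left.

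Reelin signalling had 11 of 34 listed genes in the table. Of these, 8 were called higher in basal cells (34.7% of all features), 2 lower (41.3%) and 1 not, with a median of 1.42. The reelin receptor gene Vldlr was among the higher ones. It stood at 0.80 and 0.06 in Thy-1+CD24medCD49fhigh, 0.08 and 1.27 in Thy-1-CD24medCD49fhigh, and 1.11 and 1.15 in CD24medCD49fmed, against -0.77 and -1.09 in CD24highCD49fmed and -1.40 and -1.21 in CD24medCD49f-/low. The basal and luminal arrays did not overlap, and the difference was 1.86 ± 0.34 (limma adjusted p = 0.000110). The other receptor gene, Lrp8, and the adaptor gene Dab1 were not analysed here. Cdh2, encoding N-cadherin, was higher by 3.16 ± 0.34, Apoe, whose product binds the same receptors, by 2.81 ± 0.33, and Thbs1, encoding thrombospondin-1, by 2.57 ± 0.35. Plat, the tissue plasminogen activator, was higher by 2.31 ± 0.36. The 2 lower genes were Clu (-2.51 ± 0.36, adjusted p = 6.47e-06), encoding clusterin, a secreted chaperone, and Adamts3 (-1.16 ± 0.33, adjusted p = 0.00444), a protease that cleaves reelin. Pik3r1, a regulatory subunit of phosphoinositide 3-kinase, stood at 0.80 ± 0.36 (adjusted p = 0.0502).

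Partners of the anthrax toxin receptors had 5 of 16 genes in the table. Of these, 4 were called higher in basal cells (34.7% of all features) and 1 lower (41.3%), with a median of 0.91. Mmp2, encoding a gelatinase, was higher by 4.01 ± 0.34 (limma adjusted p = 9.85e-09). The collagen I genes Col1a2 and Col1a1 were higher by 1.82 ± 0.31 and 0.91 ± 0.32, and the collagen VI gene Col6a1 by 0.79 ± 0.34 (adjusted p = 0.0422). Col6a3, the α3 chain of collagen VI, went the other way, at -1.23 to -0.14 in basal arrays, against 0.65 to 2.19 in luminal arrays (-2.23 ± 0.33, adjusted p = 1.09e-05). Col6a1 lost its call in 11 of 14 alternative fits and Col1a1 in 4 of 14, so 2 to 4 of the 5 were called higher. Of these 5 genes Mmp2, Col1a1, Col1a2 and Col6a3 also belong to the fibroblast marker list, whose mean was higher in basal arrays (above).

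Within the basal and within the luminal compartment no gene of the 5 lists was called. The share of all features called was 0.0682% for Thy-1+CD24medCD49fhigh minus Thy-1-CD24medCD49fhigh and 0.00% for Thy-1+CD24medCD49fhigh minus CD24medCD49fmed. It was 0.102% for Thy-1-CD24medCD49fhigh minus CD24medCD49fmed and 0.205% for CD24highCD49fmed minus CD24medCD49f-/low. With so few calls among all features, the lack of calls in these lists does not show equal levels. All 5 measured partners of the anthrax toxin receptors had positive Thy-1+ minus Thy-1- differences (median 0.94, beside 0.15 for all features). Of all features 1907 of 2932 had a positive difference. The largest of the 5 was Col1a2, at 1.53 and 1.75 in Thy-1+CD24medCD49fhigh, against -0.23 and -0.15 in Thy-1-CD24medCD49fhigh (1.83 ± 0.48, limma adjusted p = 0.264). Mmp2, Col1a1, Col1a2 and Col6a3 are also fibroblast markers. The Antxr1 difference was -0.45 ± 0.55 and was not called.

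Many genes shared the step between basal and luminal arrays. Over the 10 arrays a Pearson correlation above 0.95 was found with Vcan for 153 of 2559 other named genes, with Reln for 221 and with Antxr1 for 211. These points share the arrays, the centring and the step itself, so the values are given as a description. Most like Vcan were Cdh2 (r = 0.996), Sema6d (0.995), Col4a2 (0.993), Serpinf1 (0.991) and Matn2 (0.990). Most like Reln were Col4a1 (0.996), Igfbp4 (0.995), Igfbp2 (0.995), Adamts1 (0.994) and Fscn1 (0.994). Nearest to Antxr1 were Gnai1 (0.995), Sema3c (0.994), Moxd1 (0.993), Dpysl3 (0.991) and Sbspon (0.991). Col4a1 and Col4a2 encode the chains of the main basement membrane collagen, and Sema6d and Sema3c are semaphorins.

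Over the 6 basal arrays alone the 3 genes were less alike. There r was 0.761 between Vcan and Reln, 0.823 between Reln and Antxr1, and 0.422 between Vcan and Antxr1, against 0.982, 0.981 and 0.969 for the same pairs over all 10 arrays. The nearest genes are the highest of 2559 values over 6 arrays each, and they are named as a description.

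Nearest to Reln was Vldlr (r = 0.985), and each of its 5 probe sets gave an r of 0.90 to 0.98. Over all 10 arrays r was 0.900. For CD24highCD49fmed minus CD24medCD49f-/low the 2 genes had opposite signs, at 0.38 ± 0.53 for Vldlr and -1.24 ± 0.50 for Reln. In both genes Thy-1-CD24medCD49fhigh replicate 2 was the highest basal array and Thy-1+CD24medCD49fhigh replicate 2 the lowest. Next came Crispld1 (0.983), Apc (0.970), St6galnac4 (0.969) and Sema5a (0.967). Apc, a negative regulator of Wnt signalling, ran against Reln over all 10 arrays (r = -0.887), since it was lower in basal arrays (-1.17 to -0.25) than in luminal arrays (0.26 to 1.26).

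Vcan was nearest to Ipw (0.983), an imprinted noncoding RNA, which stood at 0.06 and -0.23 in Thy-1+CD24medCD49fhigh, 0.05 and 2.22 in Thy-1-CD24medCD49fhigh and 0.45 and 1.34 in CD24medCD49fmed. It was followed by Cdh2 (0.982), Psat1 (0.979), Pappa (0.970) and Sema3a (0.970). Of these, Cdh2 alone was also among the 5 nearest over all 10 arrays. Antxr1 was nearest to Map9 (0.992), encoding a microtubule-associated protein, which stood at 1.16 and 0.17 in Thy-1+CD24medCD49fhigh, 0.76 and 1.25 in Thy-1-CD24medCD49fhigh and 1.30 and 0.71 in CD24medCD49fmed. Clvs1 (0.992), Gpr161 (0.984), Cavin2 (0.977) and St6gal1 (0.977) came next.

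**Figure D4:**
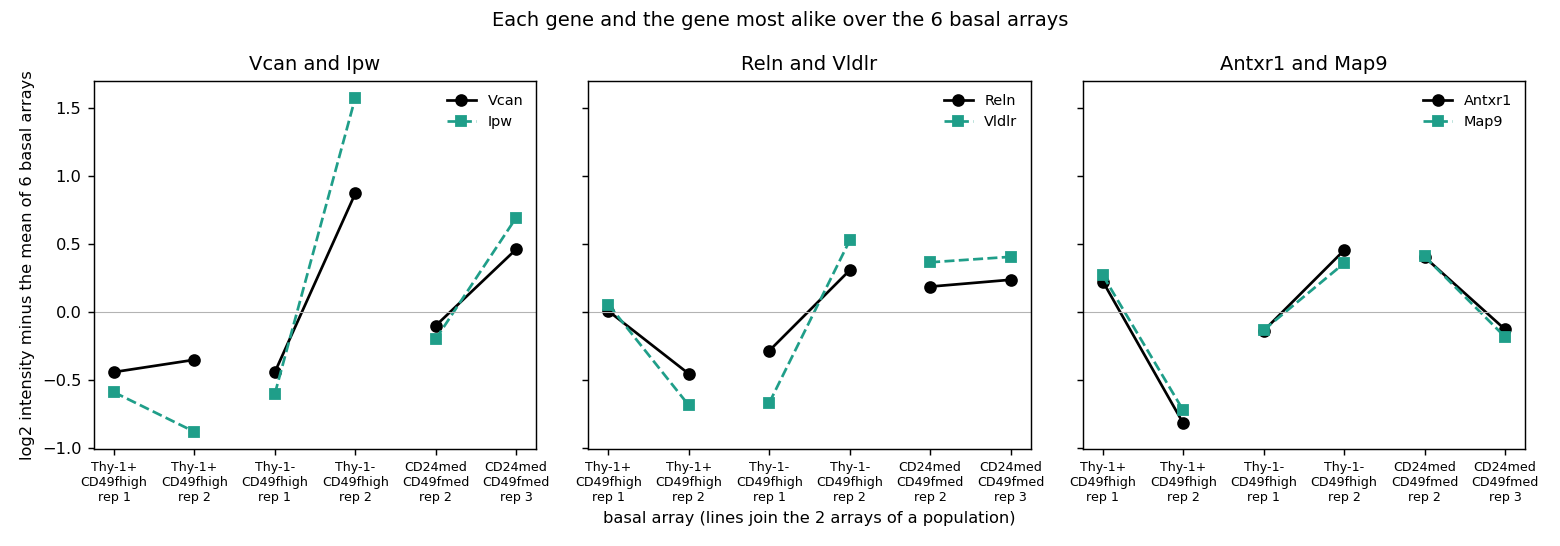
Log2 intensity minus the mean of the 6 basal arrays (y axis) in each basal array (x axis) for Vcan, Reln and Antxr1 (black circles) and for the gene most correlated with each (green squares), with lines joining the 2 arrays of a population. Vcan and Ipw rise highest in Thy-1-CD24medCD49fhigh replicate 2, and Antxr1 and Map9 are lowest in Thy-1+CD24medCD49fhigh replicate 2.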

How the data were processed

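RNA of 10 sorted samples was labelled in 2 amplification cycles and hybridised to Affymetrix oligonucleotide arrays for the mouse genome. The deposited values are log2 intensities that the authors normalised, centred per probe set (largest absolute mean 3e-07) and kept where they passed a minimum level, per the methods, and 2 arrays differed at least 4-fold (smallest range 2.00). The methods of the study name RMA, and the submitters' processing notes name RMA and GCRMA without versions. Centring removed abundance, so the values no longer show that level or the signal over background, and the number of arrays limits the precision. Probe sets that varied less were not analysed here.

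Of 3663 probe sets 3291 matched 1 gene symbol, 75 several and 297 none. Probe sets of a gene were averaged (554 genes), and others were tested alone, which gave 2932 features, 2560 of them named. One limma fit (version 3.58.1, R 4.3.3, lmFit and eBayes) held all 10 arrays with a mean per population, 5 residual and 16.5 prior degrees of freedom. The code was also run on simulated independent values of 1 common spread. These arrays differ in spread, so that run gives no error rate for them. A feature was called at a two-sided Benjamini-Hochberg adjusted p under 0.05 over all features. The test of the study, rank products, was not run. The fit was repeated with array weights, with a replicate block, after quantile normalisation or setting array medians to 0, on the compared arrays only, on single probe sets and without each array.

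The 3 genes, the lists and the tests were chosen with earlier results of these data known. Named were at most 4 called genes per list, by absolute difference, and per member the 5 genes most correlated with it over 10 and over 6 arrays. Up to 3 called genes per direction were taken from each tested comparison. Other list genes were named after their values were seen. Promoter sequences came from RefSeq (GRCm38.p6), where 2 of the 3 genes matched.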

Additional observations from a re-analysis of the deposited data

How the results depend on the processing

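None of the 3 genes was called in any of the 4 tested comparisons under any alternative. With 2 arrays a population, several differences among basal populations changed sign when 1 array was left out, while those between the luminal populations did not. Leaving out 1 array gave, for Thy-1+ minus Thy-1- cells, -1.27 to 0.05 for Vcan, -0.52 to 0.06 for Reln and -0.98 to 0.07 for Antxr1, and for Thy-1+CD24medCD49fhigh minus CD24medCD49fmed cells -0.86 to -0.30 for Vcan, -0.66 to -0.20 for Reln and -0.96 to 0.09 for Antxr1. For Thy-1-CD24medCD49fhigh minus CD24medCD49fmed cells it gave -0.62 to 0.69 for Vcan, -0.49 to 0.10 for Reln and -0.28 to 0.31 for Antxr1. That Vcan difference was -0.11 and -0.13 for probe sets 1421694_a_at and 1427256_at alone. Between the luminal populations the Vcan difference was 0.33 after quantile normalisation and 0.26 for probe set 1427256_at alone, and leaving out 1 array gave -1.54 to -0.94 for Reln and -1.88 to -0.79 for Antxr1. Quantile normalisation brought the basal minus luminal difference to 4.13 for Vcan, 3.78 for Reln and 3.86 for Antxr1.

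Same-numbered arrays deviated together at r = 0.30 (Thy-1+ with Thy-1-) and 0.52 (the luminal populations) and at -0.20 to 0.08 otherwise, and the labels give no meaning to the numbers, so they were not taken as pairs. With the replicate block, in which CD24medCD49fmed rested on its replicate 2, the Antxr1 difference of Thy-1-CD24medCD49fhigh minus CD24medCD49fmed was -0.42 and the Vcan one 0.46. For Thy-1+CD24medCD49fhigh minus CD24medCD49fmed the block gave -0.15 for Vcan and -0.87 for Antxr1. With it 9, 14, 16 and 33 features were called in the comparisons in the order below.

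Counts of called features moved most. For Thy-1+ minus Thy-1- (2) they were 1 with medians set to 0, 1 after quantile normalisation, 13 with only the arrays compared, 1 with probe sets alone and 0 to 11 with 1 array left out. For Thy-1+CD24medCD49fhigh minus CD24medCD49fmed (0) they were 1 with array weights and 0 to 1 with 1 array left out. For Thy-1-CD24medCD49fhigh minus CD24medCD49fmed (3) they were 0 after quantile normalisation, 8 with array weights, 0 with only the arrays compared and 0 to 8 with 1 array left out. For CD24highCD49fmed minus CD24medCD49f-/low (6, of which 2 higher) they were 15 with medians set to 0 (2 higher), 0 after quantile normalisation, 0 with array weights, 0 with only the arrays compared, 11 with probe sets alone and 0 to 295 with 1 array left out, the highest without CD24medCD49f-/low replicate 1. Setting medians to 0 moved the median of all features by -0.38 in that comparison, -0.17 for Thy-1+ minus Thy-1- and 0.15 for Thy-1-CD24medCD49fhigh minus CD24medCD49fmed. The cause of these changes was not tested. Of 42 list genes called between basal and luminal populations, 35 were called in all 14 alternative fits that kept genes averaged.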
